A study of Mus musculus with 9 samples.

Results

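The genes described here are 53 Wnt receptors and intracellular Wnt pathway genes, measured by RNA sequencing in midbrain dopamine (DA) neurons of mouse embryos. They were chosen by name, as genes of the pathway, and make up 53 of the 47729 genes counted. A filter on low counts kept 52 of them among 17988 genes tested, and the gene it removed was the secreted inhibitor Dkk1. By role they comprise 10 frizzled receptors, 2 LRP co-receptors, 3 other Wnt receptors, the acyltransferase Porcn, 6 secreted modulators, 4 R-spondin receptors or receptor-turnover ligases, 5 dishevelled genes and their binding partners, 8 genes of the beta-catenin destruction complex, 5 of beta-catenin and its nuclear partners, 4 TCF/LEF factors and 5 core planar polarity genes.

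The neurons were isolated at E15.75 from C57/Bl6 embryos by fluorescence-activated cell sorting for YFP. Every embryo, controls included, was Pitx3-Cre/+, with Cre recombinase made from the Pitx3 gene in postmitotic midbrain DA neurons, and carried Rosa-lox-stop-lox-Yfp, which Cre switches on. The genotypes differed in floxed alleles of Dot1l, the methyltransferase of lysine 79 on histone H3, and are named Dot1l(+/+) (0 floxed alleles, 3 libraries), Dot1l(fl/+) (1 floxed allele, 3 libraries) and Dot1l(fl/fl) (2 floxed alleles, 2 libraries). Each library pooled several embryos, so it averages over animals, and Cre acts in no cell before Pitx3 is on. The comparison here asks whether the receptors and transducers of the pathway differ with the number of floxed alleles.

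Wnt ligands bind a frizzled receptor together with LRP5 or LRP6, and dishevelled then inhibits the complex of axin, APC, GSK3 and casein kinase that otherwise marks beta-catenin for destruction. Beta-catenin that escapes enters the nucleus, where TCF/LEF factors on DNA recruit it with BCL9 and pygopus to activate target genes. In a separate branch, Vangl and Celsr proteins with frizzled set planar cell polarity, and Wnt signalling of both kinds is known to act in the birth of midbrain DA neurons and in the guidance of their axons.

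Library totals ranged from 13616922 to 43674673 counts, the shallowest being those labelled Dot1l(fl/fl), and 3 counts equalled from 0.0687 to 0.2203 CPM (counts scaled to the library total), a limit that covers counting error only. Dot1l itself had levels of 105, 84.6 and 94.6 CPM across Dot1l(+/+) 1 to 3, of 75.5, 65.6 and 76.2 CPM across Dot1l(fl/+) 1 to 3, and of 64.9 and 99.1 CPM across Dot1l(fl/fl) 1 and 2. The library labelled Dot1l(fl/fl) 2 therefore lay inside the Dot1l(+/+) range. The floxed stretch is a small part of the transcript and exon counts were not used here, so the level of the whole gene is a weak check. Dot1l(fl/fl) therefore names a group by its label only, its members are called the fl/fl-labelled libraries, and every direction given for the group includes library 2. The 10 DA neuron markers were detected in every library and summed to between 5370 and 5930 CPM in Dot1l(+/+), 5160 and 5630 for Dot1l(fl/+), and 4410 and 5120 for the fl/fl-labelled libraries. Markers of microglia summed to between 107 and 160 CPM and those of radial glia or progenitors to between 225 and 274 CPM over all libraries, with the genotypes overlapping in both lists. The 9 genes of the response to dissociation summed to between 873 and 998 CPM in Dot1l(+/+), 845 and 1060 in Dot1l(fl/+), and 1170 and 1200 in the fl/fl-labelled libraries, which were above all others. The 7 GABAergic markers likewise summed to at most 231 CPM in the other genotypes and to 235 and 265 CPM in the fl/fl-labelled libraries. Among them Slc32a1 was at 156 and 129 CPM in fl/fl-labelled libraries 1 and 2, beside at most 120 CPM elsewhere. Gad2, at 98.8 and 95.2 CPM, overlapped with the other genotypes, and Gad1, Gata2, Gata3 and Tal1 had log2 fold changes below 0 against Dot1l(+/+). The part of these marker lists in the differences below was not tested.

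Levels in Dot1l(+/+) were compared between genes as CPM per kilobase of exon. Ctnnb1, which encodes beta-catenin, was the highest member at 116 ± 4.64 CPM per kb (SD, n = 3). The kinase genes listed here with the destruction complex followed, with the casein kinase gene Csnk1e at 58.4 ± 1.36, Gsk3a at 53.3 ± 4.26, Csnk1a1 at 38.6 ± 0.719 and Gsk3b at 37.9 ± 2.02 CPM per kb. Ctnnb1, Csnk1e, Gsk3a and Gsk3b did not overlap with the next gene in the order over the 3 libraries, whereas Csnk1a1 overlapped with Gsk3b. The planar polarity genes Celsr3, at 27.6 ± 3.50, and Vangl2, at 25.4 ± 2.63 CPM per kb, stood with the dishevelled gene Dvl1, at 25.3 ± 1.12, and overlapped with it. Of the 52 pairs of neighbours in the order of levels, 44 overlapped over the Dot1l(+/+) libraries.

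The receptors were lower. Fzd1, Fzd10, Fzd8 and Fzd3 were the highest frizzled genes, at 5.03 ± 1.27, 4.57 ± 1.16, 4.51 ± 0.133 and 4.38 ± 0.725 CPM per kb, and did not differ beyond the spread of the libraries. The other 6 frizzled genes lay between 0.201 (Fzd6) and 1.04 (Fzd9) CPM per kb. Ryk, an atypical Wnt receptor with a role in axon guidance, was above every frizzled gene at 15.5 ± 1.20 CPM per kb, while the receptor tyrosine kinase genes Ror2 and Ror1 were at 0.188 and 0.00447. The co-receptor gene Lrp6 was at 4.91 ± 0.435 CPM per kb and its paralog Lrp5 at 0.707 ± 0.160, with no overlap between their libraries. Among regulators of receptors, Lgr4, an R-spondin receptor, was at 7.32 ± 1.21 CPM per kb and its paralog Lgr5 at 0.0193, and the ubiquitin ligase genes Znrf3 and Rnf43, which remove frizzled from the surface, were at 1.38 ± 0.452 and 0.0494.

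The DNA-binding end of the pathway was low. Tcf7l2 was at 2.30 ± 2.34 CPM per kb, and Tcf7, Lef1 and Tcf7l1 were at 0.190, 0.189 and 0.178. In counts, Lef1 had 22, 88 and 70 in the 3 Dot1l(+/+) libraries. Nuclear partners of beta-catenin were higher, at 26.4 ± 2.21 CPM per kb for Pygo2, 18.3 ± 0.969 for Pygo1, 15.6 ± 0.615 for Bcl9 and 8.97 ± 1.33 for Bcl9l. Dkk1, which is an inhibitor of the LRP co-receptors and also a target gene of the pathway, had 1, 0 and 5 counts in Dot1l(+/+) and 0 in each of the other libraries. The plot of levels by role shows this fall from the cytoplasmic kinases to the TCF/LEF factors.

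**Figure D1:**
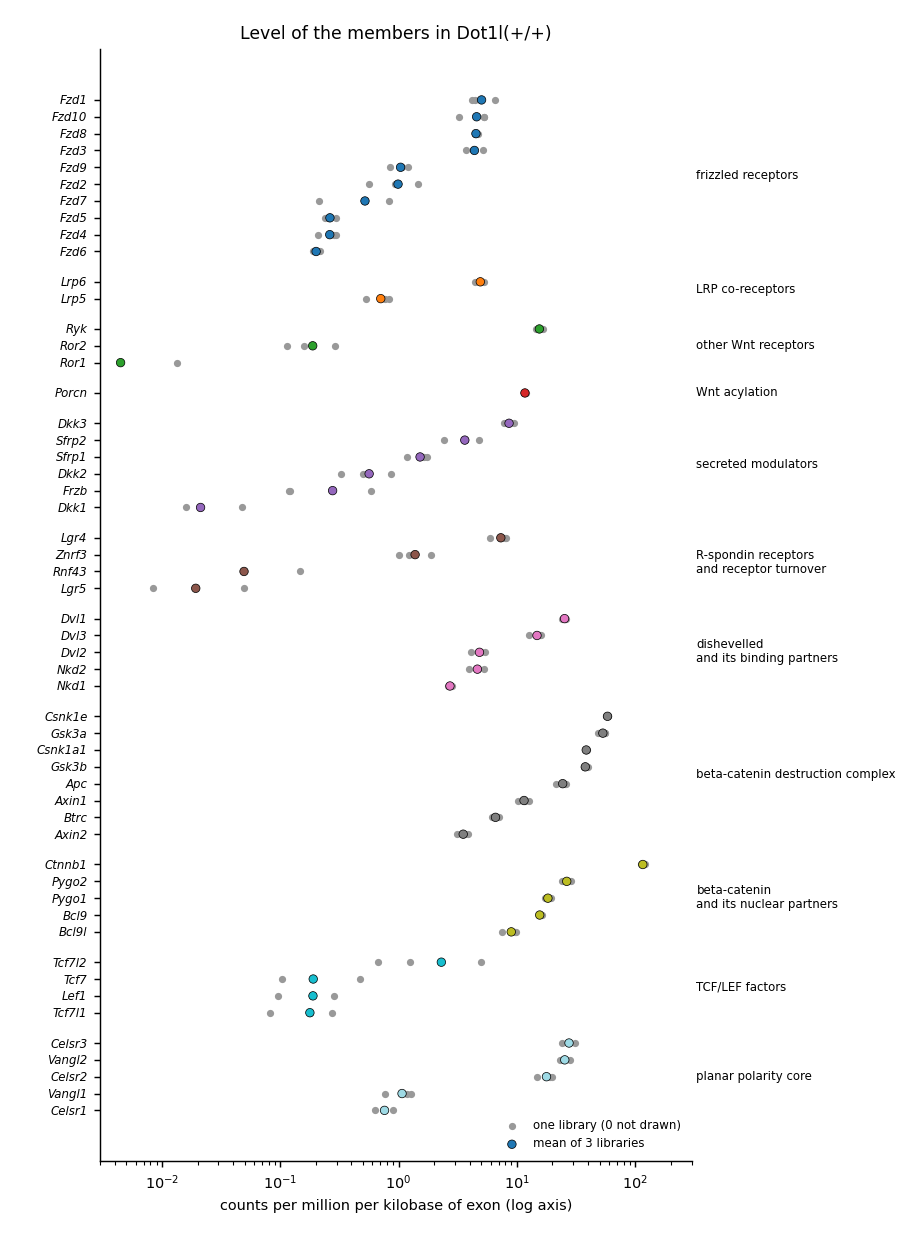
Level of each member in Dot1l(+/+), in CPM per kilobase of exon on a log axis, grouped by role. Grey points are single libraries (a library at 0 is not drawn) and coloured points are means of 3 libraries. Ctnnb1 is highest at 116, the highest frizzled gene is Fzd1 at 5.03, and Tcf7, Lef1 and Tcf7l1 lie between 0.178 and 0.190.

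Comparison of the fl/fl-labelled libraries with Dot1l(+/+) asked which members differ when both alleles are floxed. After adjustment over all genes none of the 52 members passed an edgeR adjusted p of 0.05, as was the case for 0 of all 17988 genes (0%), and the smallest adjusted p of a member was 0.248, for Celsr2. Without adjustment, 8 members (15.4%) had a p under 0.05 and were lower, against 5.03% of all genes tested, and 0 members were higher, against 4.24%. They were the planar polarity genes Celsr1, Celsr2 and Celsr3, the beta-catenin partners Bcl9 and Bcl9l, the destruction complex genes Gsk3b and Apc, and the receptor gene Fzd10. Over all 52 members the median log2 fold change was -0.11, with 40.4% higher, beside -0.00 and 49.5% over all genes tested. Both fl/fl-labelled libraries were above every Dot1l(+/+) library for 2 members and below for 8. Of the 17988 genes tested, 2182 were above and 2087 below in this way, so such separation was common. The labels do not tie the libraries of a genotype to separate litters or sorts, so the p-values measure the spread between these libraries, which may in part be technical. In pooled RNA, fewer cells of a type and less RNA per cell cannot be told apart.

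The planar polarity genes were the role with the most members past that unadjusted threshold, 3 of 5. Celsr2, which encodes an atypical cadherin with a role in axon tract formation, was at 220, 169 and 228 CPM in Dot1l(+/+) 1 to 3, at 179, 186 and 167 CPM in the Dot1l(fl/+) libraries, and at 146 and 157 CPM in the fl/fl-labelled libraries 1 and 2. The fl/fl-labelled libraries were the lowest of the 8, and the Dot1l(fl/+) libraries overlapped with Dot1l(+/+) through Dot1l(+/+) 2. The log2 fold change in Dot1l(fl/fl) was -0.44 ± 0.12 (SE), a level 0.738 times that of Dot1l(+/+), and the unadjusted edgeR p was 0.00141 (adjusted p = 0.248). Celsr2 did pass the adjusted threshold under 3 alternatives: with DESeq2 (adjusted p = 0.0271, where 2.12% of the 6735 genes given an adjusted p were called lower and 0.802% higher), with no filter on low counts (adjusted p = 0.0366, 0.291% lower and 0.156% higher) and without Dot1l(+/+) 2 (-0.56, adjusted p = 0.0287, 0.265% lower and 0.158% higher). With an offset that corrects for the length and GC content of exons its log2 fold change was -0.25 (edgeR adjusted p = 0.679).

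Celsr3, a paralog of Celsr2 needed for major axon tracts, was at 333, 290 and 375 CPM in Dot1l(+/+), at 275, 288 and 296 CPM in Dot1l(fl/+) and at 253 and 296 CPM in the fl/fl-labelled libraries. All 3 genotypes overlapped, and the log2 fold change in Dot1l(fl/fl) was -0.28 ± 0.11 (SE, edgeR adjusted p = 0.415, unadjusted 0.0191), which became -0.09 with the length and GC offset. Celsr1, known for its action in progenitors and neural tube closure, was far lower, at 6.91, 9.91 and 8.30 CPM in Dot1l(+/+), 4.30, 6.29 and 6.43 CPM in Dot1l(fl/+), and 3.77 and 5.33 CPM in the fl/fl-labelled libraries. Every Dot1l(+/+) library was above every library of the other genotypes, with a log2 fold change in Dot1l(fl/fl) of -0.89 ± 0.34 (SE, edgeR adjusted p = 0.393, unadjusted 0.0161). Vangl2, the main Vangl gene here, was at 172, 163 and 198 CPM in Dot1l(+/+), 164, 164 and 150 CPM in Dot1l(fl/+), and 165 and 155 CPM in the fl/fl-labelled libraries, so that the genotypes overlapped, with log2 fold changes of -0.15 ± 0.11 in Dot1l(fl/fl) and -0.16 ± 0.10 in Dot1l(fl/+).

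**Figure D2:**
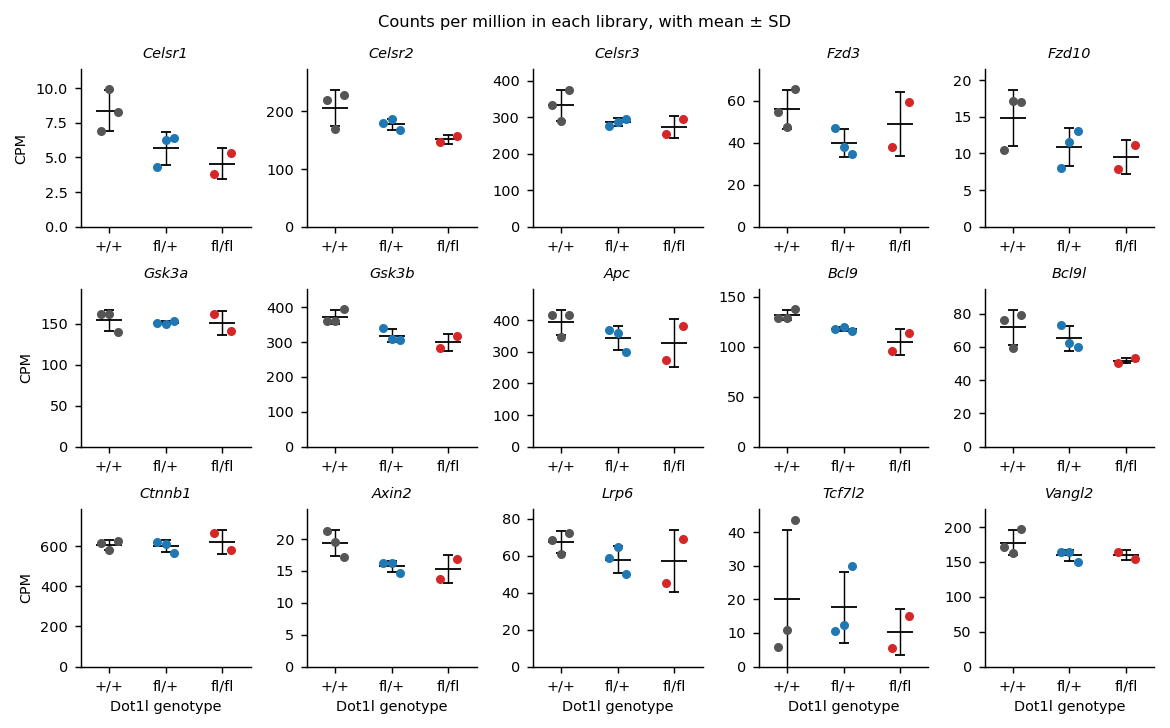
CPM of 15 members in each library by Dot1l genotype, on axes that start at 0. Points are libraries and bars are means ± SD (3 libraries each of +/+ and fl/+, 2 of fl/fl). The fl/fl libraries of Celsr2, Bcl9l, Gsk3b and Bcl9 lie below every +/+ library, those of Ctnnb1, Gsk3a and Lrp6 overlap with +/+, and Tcf7l2 spreads widely within each genotype. Of all 17988 genes tested, 2087 have both fl/fl libraries below every +/+ library.

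The destruction complex was uneven. Gsk3b, which encodes a kinase that marks beta-catenin for destruction, was at 360, 362 and 396 CPM in Dot1l(+/+), at 341, 310 and 305 CPM in Dot1l(fl/+), and at 282 and 317 CPM in the fl/fl-labelled libraries. No library of the other genotypes reached the Dot1l(+/+) range, and the log2 fold change was -0.32 ± 0.10 (SE, edgeR adjusted p = 0.281, unadjusted 0.00391) in Dot1l(fl/fl). DESeq2 placed it past the threshold, at -0.31 with an adjusted p of 0.0349. Gsk3a, whose product shares much of this activity, was at 162, 162 and 140 CPM in Dot1l(+/+), at 151, 150 and 154 CPM in Dot1l(fl/+), and at 162 and 141 CPM in the fl/fl-labelled libraries. The genotypes overlapped, with log2 fold changes of -0.03 ± 0.11 in Dot1l(fl/fl) and -0.03 ± 0.10 in Dot1l(fl/+), although 28.3% of the exon bases of Gsk3a are also covered by a gene on the other strand. Whether the change of Gsk3b differed from that of Gsk3a was not tested.

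Apc, the scaffold of the complex, was at 415, 347 and 417 CPM in Dot1l(+/+), 369, 360 and 299 CPM in Dot1l(fl/+), and 273 and 382 CPM in the fl/fl-labelled libraries. The last of these lay inside the Dot1l(+/+) range, and the log2 fold change of -0.26 ± 0.13 (SE, edgeR adjusted p = 0.531, unadjusted 0.0470) became -0.04 without fl/fl-labelled library 1 and -0.53 without fl/fl-labelled library 2. Axin2, a limiting scaffold that beta-catenin itself induces and hence a common readout of the pathway, was at 21.3, 19.6 and 17.2 CPM in Dot1l(+/+), 16.2, 16.3 and 14.7 CPM in Dot1l(fl/+), and 13.7 and 16.9 CPM in the fl/fl-labelled libraries. All 5 libraries labelled with a floxed allele were below the 3 Dot1l(+/+) libraries, yet neither difference passed an unadjusted p of 0.05, with log2 fold changes of -0.34 ± 0.21 (SE, edgeR adjusted p = 0.670) in Dot1l(fl/fl) and -0.30 ± 0.19 (adjusted p = 0.94) in Dot1l(fl/+). The first of these was -0.19 without fl/fl-labelled library 1 and -0.50 without fl/fl-labelled library 2. Csnk1e was at 390, 374 and 390 CPM in Dot1l(+/+), 364, 373 and 333 CPM in Dot1l(fl/+), and 380 and 311 CPM in the fl/fl-labelled libraries, with a log2 fold change of -0.16 ± 0.10 there, or -0.31 without the first and -0.02 without the second. Csnk1a1, Axin1 and Btrc, the last a subunit of the ligase that takes up marked beta-catenin, had log2 fold changes between 0.02 and 0.09.

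The sequences before the start sites of Gsk3b, Gsk3a and Celsr2 are shown because Gsk3b and Celsr2 are the members with the smallest unadjusted p and Gsk3a is the paralog of Gsk3b that overlapped between genotypes. RefSeq windows on GRCm38.p6 of 250 bases before to 50 after a start site were at hand for 35 of the 53 members, in 47 windows. The 250 bases before the start are printed 5′ to 3′ on the strand of the gene, at chr16:38088751-38089000 on the + strand for Gsk3b, chr7:25237852-25238101 on the - strand for Gsk3a and chr3:108415580-108415829 on the - strand for Celsr2. Capitals mark the letters of the TCF/LEF core, searched as CTTTGAA and CTTTGAT on both strands.
Gsk3b: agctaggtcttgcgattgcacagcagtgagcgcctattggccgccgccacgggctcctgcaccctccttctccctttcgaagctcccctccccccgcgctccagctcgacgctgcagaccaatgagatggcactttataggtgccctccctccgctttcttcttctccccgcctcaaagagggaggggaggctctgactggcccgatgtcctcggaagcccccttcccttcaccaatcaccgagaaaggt
Gsk3a: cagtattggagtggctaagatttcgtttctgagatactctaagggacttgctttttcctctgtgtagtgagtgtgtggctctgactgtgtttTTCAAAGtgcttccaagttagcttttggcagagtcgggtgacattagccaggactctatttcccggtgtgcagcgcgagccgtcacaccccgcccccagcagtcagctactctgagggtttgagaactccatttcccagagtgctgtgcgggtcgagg
Celsr2: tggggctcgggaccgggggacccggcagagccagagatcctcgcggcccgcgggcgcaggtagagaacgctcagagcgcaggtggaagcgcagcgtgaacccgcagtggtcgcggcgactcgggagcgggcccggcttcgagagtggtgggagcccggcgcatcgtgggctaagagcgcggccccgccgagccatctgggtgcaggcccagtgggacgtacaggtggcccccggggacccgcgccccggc

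Gsk3a held the core once, at position -158 from its start and on the opposite strand, and Dkk1 held it at position -117, while no other member with a window did. Of the members with a window 5.71% therefore held it, beside 9.88% of the 27018 genes with a window in the same table. The member windows had a median GC content of 67.3% and a median CpG ratio (observed over expected) of 0.73, beside 52.7% and 0.38 over all windows. A match or its absence describes these letters in these windows only.

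Beta-catenin and its partners divided in the same comparison. Ctnnb1 was at 613, 578 and 624 CPM in Dot1l(+/+), at 620, 611 and 564 CPM in Dot1l(fl/+), and at 663 and 578 CPM in the fl/fl-labelled libraries. The genotypes overlapped, with log2 fold changes of 0.04 ± 0.09 in Dot1l(fl/fl) and -0.01 ± 0.08 in Dot1l(fl/+). A gene on the other strand covers part of the exons of Ctnnb1 (14.6% of bases), as for Lef1 (13.7%) and Fzd5 (17.8%), and its reads may be counted with them. Bcl9, which links beta-catenin to pygopus, was at 129, 129 and 138 CPM in Dot1l(+/+), 118, 120 and 116 CPM in Dot1l(fl/+), and 96.0 and 114 CPM in the fl/fl-labelled libraries. Its genotypes did not overlap, in the order Dot1l(+/+), Dot1l(fl/+), Dot1l(fl/fl), and the log2 fold change in Dot1l(fl/fl) was -0.34 ± 0.11 (SE, edgeR adjusted p = 0.311, unadjusted 0.00673), or -0.21 with the length and GC offset. Bcl9l, its paralog, was at 76.5, 59.5 and 79.2 CPM in Dot1l(+/+), 73.5, 62.1 and 59.8 CPM in Dot1l(fl/+), and 50.6 and 53.1 CPM in the fl/fl-labelled libraries. Here only the fl/fl-labelled libraries lay apart, at -0.47 ± 0.15 (SE, edgeR adjusted p = 0.281, unadjusted 0.00403). Pygo1 and Pygo2 had log2 fold changes of -0.09 ± 0.11 and -0.10 ± 0.12.

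Among receptors, Fzd10 was at 10.5, 17.1 and 17.0 CPM in Dot1l(+/+), 8.03, 11.5 and 13.1 CPM in Dot1l(fl/+), and 7.93 and 11.2 CPM in the fl/fl-labelled libraries. The genotypes with a floxed allele overlapped with each other, and with Dot1l(+/+) only through Dot1l(+/+) 1. The log2 fold change in Dot1l(fl/fl) was -0.65 ± 0.29 (SE, edgeR adjusted p = 0.479, unadjusted 0.0331), or -0.42 without fl/fl-labelled library 1. The frizzled genes had no common direction in this comparison, with 6 of 10 higher and a median of 0.30, and the 3 with the highest fold changes, Fzd7, Fzd4 and Fzd5 (0.82 ± 0.59, 0.59 ± 0.64 and 0.56 ± 0.65), were at most 6.12 CPM in any library. Without fl/fl-labelled library 2 the value of Fzd4 was -0.42 and that of Fzd7 -0.08. In both fl/fl-labelled libraries Fzd5 and Fzd9 (0.37 ± 0.46) were above, and Fzd8 (-0.20 ± 0.22) was below, every Dot1l(+/+) library, all with differences smaller than their SE. Fzd1 was at 18.6, 27.2 and 17.5 CPM in Dot1l(+/+), 19.0, 22.2 and 25.1 CPM in Dot1l(fl/+), and 16.8 and 33.8 CPM in the fl/fl-labelled libraries, which were the lowest and the highest of the 8. Lrp6 was at 68.4, 60.6 and 72.3 CPM in Dot1l(+/+), 58.5, 64.7 and 50 CPM in Dot1l(fl/+), and 45.4 and 69.1 CPM in the fl/fl-labelled libraries. Of the latter, library 1 was the lowest of the 8 and library 2 lay inside the Dot1l(+/+) range. The log2 fold change of Lrp6, -0.23 ± 0.16, became 0.04 without fl/fl-labelled library 1 and -0.57 without fl/fl-labelled library 2.

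The remaining receptor-side genes overlapped between genotypes. Ryk was at 70.1, 65.2 and 76.0 CPM in Dot1l(+/+), 69.2, 81.4 and 73.7 CPM in Dot1l(fl/+), and 76.5 and 71.3 CPM in the fl/fl-labelled libraries, a log2 fold change of 0.07 ± 0.13. Porcn, the enzyme that acylates Wnt ligands before secretion, was at 34.2, 35.9 and 35.3 CPM, at 32.2, 30.7 and 40.0 CPM, and at 40.2 and 34.3 CPM in the same order, a log2 fold change of 0.08 ± 0.17. Lgr4 was at 47.9, 34.9 and 46.5 CPM, at 38.2, 38.7 and 35.6 CPM, and at 32.5 and 37.9 CPM, a log2 fold change of -0.29 ± 0.17 (SE, edgeR adjusted p = 0.627). Dkk3, the most abundant secreted member per length, was at 28.7, 26.2 and 31.6 CPM, at 35.6, 30.5 and 28.0 CPM, and at 37.8 and 28.9 CPM, a log2 fold change of 0.21 ± 0.18. None of the 5 secreted members tested passed an unadjusted p of 0.05, and their log2 fold changes ran from -0.95 (Frzb) to 0.44 (Dkk2). Without Dot1l(+/+) 2 Frzb was at 0.25 and Dkk2 at 0.90. Dvl1 was at 128, 120 and 131 CPM, at 130, 99.9 and 127 CPM, and at 105 and 129 CPM, a log2 fold change of -0.11 ± 0.13, and the 5 genes of that role ranged from -0.23 (Dvl3) to 0.05 (Nkd2).

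All 4 TCF/LEF factors were lower in the fl/fl-labelled libraries by their fitted values, with a median log2 fold change of -0.85, but none had an unadjusted p under 0.05 and all overlapped with Dot1l(+/+). Tcf7l2 was at 5.83, 10.9 and 43.7 CPM in Dot1l(+/+), 10.7, 12.4 and 29.9 CPM in Dot1l(fl/+), and 5.58 and 15.2 CPM in the fl/fl-labelled libraries. Libraries of 1 genotype differed widely, the genotypes overlapped, and Dot1l(+/+) 3 was the highest of all. Its log2 fold change of -0.98 ± 0.56 (SE, edgeR adjusted p = 0.619) became 0.29 without Dot1l(+/+) 3 and -1.86 without fl/fl-labelled library 2, and with no filter on low counts it was -0.99 with an adjusted p of 0.0271. In Dot1l(fl/+) the value turned from -0.20 ± 0.47 to 1.07 without Dot1l(+/+) 3. Lef1 was at 0.849, 2.50 and 1.62 CPM in Dot1l(+/+), 1.18, 0.773 and 0.597 CPM in Dot1l(fl/+), and 0.656 and 1.37 CPM in the fl/fl-labelled libraries, a log2 fold change of -0.72 ± 0.93. Tcf7, at 7, 0 and 53 counts in Dot1l(+/+), likewise went from -1.19 ± 2.02 to 0.70 without Dot1l(+/+) 3.

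**Figure D3:**
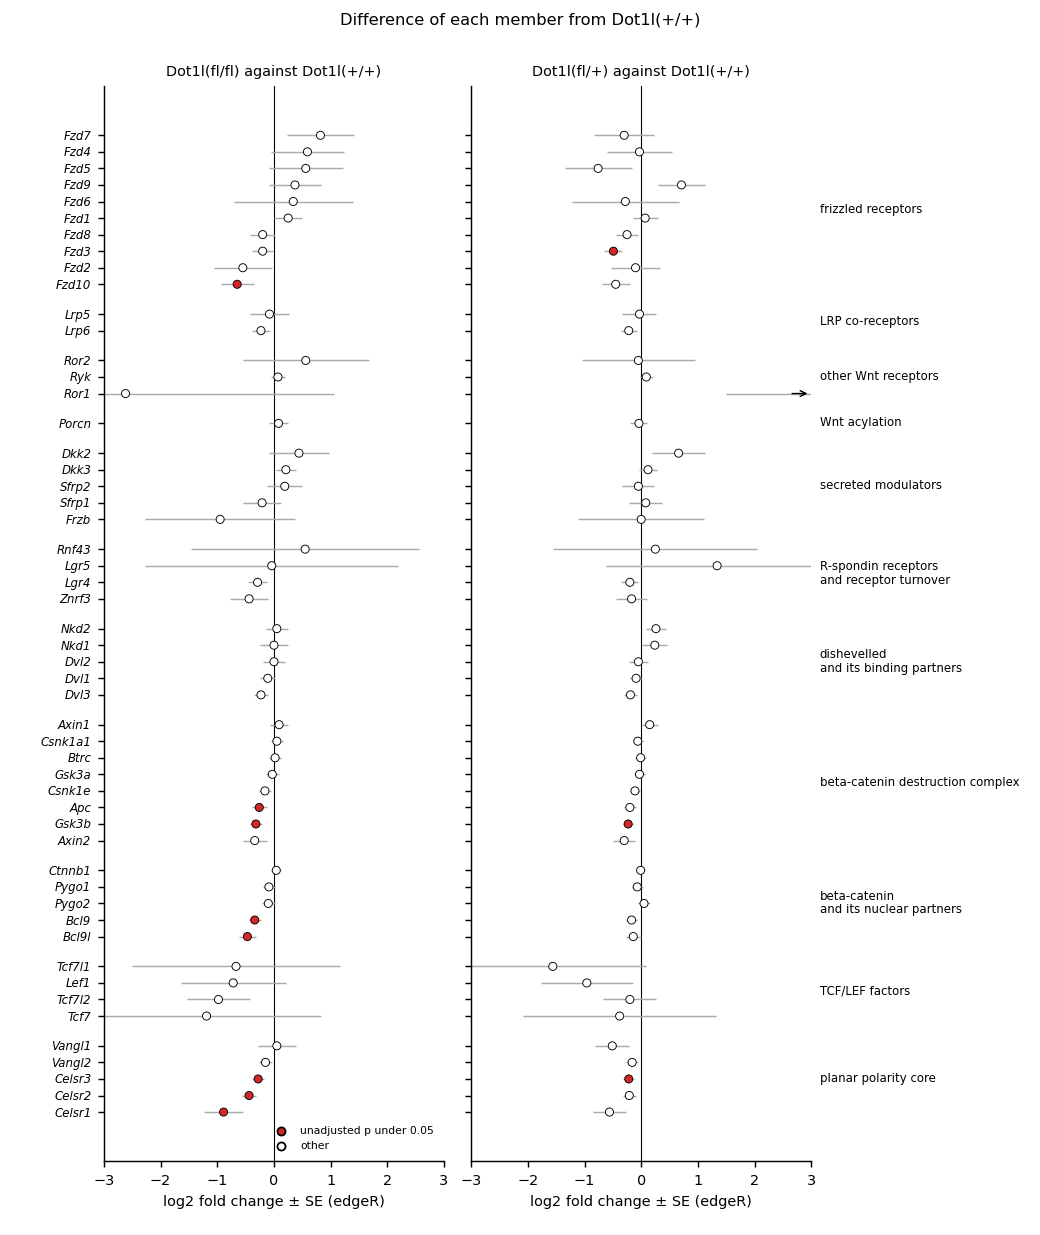
Log2 fold change ± SE (edgeR) of each of the 52 members tested, by role, in Dot1l(fl/fl) and in Dot1l(fl/+) against Dot1l(+/+). Filled points have an unadjusted p under 0.05, 8 in the first comparison and 3 in the second, all below 0, and none passes an adjusted p of 0.05. Bars are drawn up to 3 in either direction and the arrow marks Ror1 at 4.06, a gene with at most 0.879 CPM in any library.

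The comparison of Dot1l(fl/+) with Dot1l(+/+) asked the same of a single floxed allele, and shares its control libraries with the comparison above. Again 0 members passed an edgeR adjusted p of 0.05 (0% of all genes), the smallest being 0.94. Without adjustment 3 members (5.77%) were lower at a p under 0.05, against 2.86% of all genes tested, and 0 were higher, against 2.16%. Fzd3, a receptor needed for axon guidance along the brainstem and forebrain, was at 54.9, 47.4 and 65.8 CPM in Dot1l(+/+), at 47.3, 38.0 and 34.7 CPM in Dot1l(fl/+), and at 38.0 and 59.6 CPM in the fl/fl-labelled libraries. The highest Dot1l(fl/+) library was just below the lowest Dot1l(+/+) library, at a log2 fold change of -0.49 ± 0.16 (SE, edgeR adjusted p = 0.94, unadjusted 0.00679), whereas the fl/fl-labelled libraries overlapped with both, at -0.20 ± 0.19 against Dot1l(+/+). That last value was 0.09 without fl/fl-labelled library 1 and -0.56 without fl/fl-labelled library 2. The other members were Gsk3b, at -0.23 ± 0.09 (unadjusted edgeR p 0.0165, adjusted p = 0.94), and Celsr3, at -0.22 ± 0.10 (unadjusted 0.0368, adjusted p = 0.94). The median over the members was -0.09, with 25.0% higher, beside -0.01 and 49.0% over all genes tested. Every Dot1l(fl/+) library was above every Dot1l(+/+) library for 1 member and below for 7, beside 1000 and 1074 of all genes tested.

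The fl/fl-labelled libraries were also compared with Dot1l(fl/+), a comparison that adds the second floxed allele. No member passed an edgeR adjusted p of 0.05 (0% of all genes, smallest 0.998 among members), 1 (1.92%) was lower at an unadjusted p under 0.05, against 2.16% of all genes, and 0 were higher, against 1.86%. That member was Bcl9l, at -0.33 ± 0.15 (SE, edgeR adjusted p = 0.998, unadjusted 0.0343), whose libraries did not overlap. The median over the members was -0.04, with 38.5% higher, beside 0.00 and 50.2% over all genes tested. Both fl/fl-labelled libraries were above every Dot1l(fl/+) library for 2 members and below for 4, beside 1831 and 1722 of all genes tested.

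Within libraries, the median over the 52 members of the log2 level minus the Dot1l(+/+) mean was 0.004, -0.069 and 0.061 in Dot1l(+/+) 1 to 3. It was -0.118, -0.126 and -0.088 for Dot1l(fl/+) 1 to 3 and -0.108 and -0.062 for the fl/fl-labelled libraries 1 and 2. Dot1l(fl/+) therefore lay below the Dot1l(+/+) range, whereas fl/fl-labelled library 2 lay inside it, just above Dot1l(+/+) 2. Over all genes tested the same medians lay between -0.012 and 0.018.

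Members lower in Dot1l(fl/fl) without adjustment kept their sign under each of the 15 alternative fits, as the plot of settings shows, but their size moved. Of the 24 members whose sign did depend on a left-out library, none had an unadjusted p under 0.05 in this comparison. Both observations were largely fixed by picking members by p in these same libraries, so neither is independent support. With the length and GC offset the count was 5 in place of 8, beside 6.72% in place of 9.27% of all genes in either direction, and the median over the members -0.056 in place of -0.107. Celsr2, Gsk3b and Bcl9l had an unadjusted p under 0.05 in all 15 alternatives, Bcl9 and Celsr1 in 12, Fzd10 in 11, Celsr3 in 10 and Apc in 7. Without fl/fl-labelled library 1 the count was 5, beside 6.88% of all genes, and without fl/fl-labelled library 2 it was 12, beside 11.1%.

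**Figure D4:**
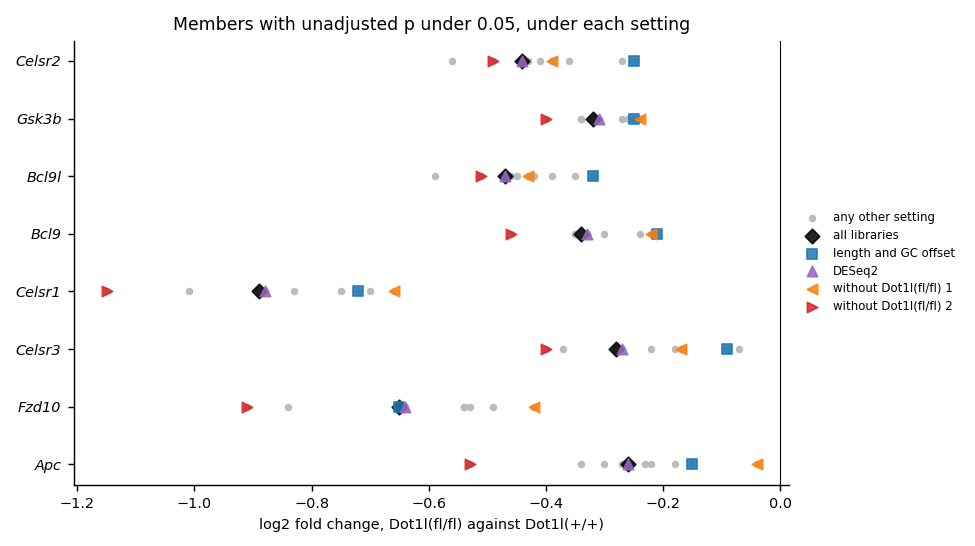
Log2 fold change in Dot1l(fl/fl) against Dot1l(+/+) of the 8 members with an unadjusted p under 0.05, under the fit with all libraries and each alternative. Every value is below 0. Apc ranges from -0.53 to -0.04 with the fl/fl library that is left out, and Celsr2 from -0.56 to -0.25.

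Other genes of the pathway were taken from a list of 142 names, of which 139 were matched and 126 tested. In Dot1l(fl/fl) against Dot1l(+/+), 5 of the 126 were higher and 19 lower at an unadjusted p under 0.05, beside 4.24% and 5.03% of all genes tested. The median over the 126 was -0.05, and 0 of them passed an edgeR adjusted p of 0.05. The nuclear factors among the 126 had 7 of 20 lower and 0 higher, beside the same shares of all genes, and a median of -0.21. Tle2 and Tle3, which encode Groucho corepressors that bind TCF/LEF factors, were at -0.53 ± 0.15 and -0.40 ± 0.11 (edgeR adjusted p = 0.245 and 0.248), and Cxxc4, which encodes an inhibitor that binds dishevelled, was at -0.46 ± 0.13 (adjusted p = 0.245). Of the 16 ligands and R-spondins tested 3 were higher and 2 lower, beside the same 4.24% and 5.03% of all genes, with Wnt7b and Wnt7a having the smallest p. In Dot1l(fl/+) against Dot1l(+/+), 1 of the 126 was higher and 9 lower, beside 2.16% and 2.86% of all genes tested. The smallest unadjusted p there was that of Tle2, at -0.45 ± 0.13 (edgeR adjusted p = 0.94). In Dot1l(fl/fl) against Dot1l(fl/+), 4 of the 126 were higher and 5 lower, beside 1.86% and 2.16% of all genes tested.

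Target genes of the pathway that are not members numbered 30, of which 25 were tested. In Dot1l(fl/fl) against Dot1l(+/+), 2 of the 25 were higher and 5 lower at an unadjusted p under 0.05, with a median of -0.25, beside 4.24% and 5.03% of all genes tested. In Dot1l(fl/+) against Dot1l(+/+) 0 were higher and 1 lower, with a median of -0.07, beside 2.16% and 2.86% of all genes tested. En2, a homeobox gene of the midbrain, had the smallest p in the first comparison and the only one in the second, at -0.47 ± 0.09 (edgeR adjusted p = 0.114) and -0.25 ± 0.08 (adjusted p = 0.94). Its libraries were at 445, 421 and 472 CPM in Dot1l(+/+) and at 327 and 316 CPM in the fl/fl-labelled libraries, without overlap. In Dot1l(fl/fl) against Dot1l(fl/+), 1 was higher and 5 were lower, with a median of -0.14, beside 1.86% and 2.16% of all genes tested. En1, a paralog of En2 that is also in the list of DA neuron markers, had the smallest p there, at -0.29 ± 0.10 (edgeR adjusted p = 0.998). The gene that was higher was Jun, at 0.30 ± 0.10 (adjusted p = 0.998), which is also in the dissociation list.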

How the data were processed

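RNA was sequenced from sorted midbrain DA neurons, and the authors deposited raw read counts per Ensembl gene, as whole numbers, for each library. The submitters' processing notes name bcl2fastq 2.17, Trimmomatic 0.30, DESeq2 1.10.1 and GRCm38.p4. The kit preserved strand, but the aligner, counter and its strand setting were not given in the sources used here, so the 6 members with over 10% of exon bases shared with another gene are uncertain. Tables of the authors' own comparisons (means, fold changes, standard errors, p-values) were not used, and the labels name a Dot1l(fl/fl) 3 that is not analysed here. Samples were grouped by their titles.

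Counts were tested with edgeR 4.0.16 (R 4.3.3): TMM, filterByExpr, 1 quasi-likelihood fit of all 8 libraries without covariates, and Benjamini-Hochberg adjustment over 17988 genes at a threshold of 0.05. Standard errors are the fold change over the root of its F statistic. Exon lengths came from GENCODE M21. Alternatives included DESeq2 1.42.0 and a length and GC offset (splines with 4 degrees of freedom). The fits were tested on simulated data. The members, lists and tests were chosen with earlier results of these data known. Library values are given for members with an unadjusted p under 0.05 in any comparison, the highest member of each role per length, and Ctnnb1, Lef1, Tcf7l2, Axin2 and Lrp6, and other genes are named from the 5 smallest p-values of their list in a comparison. Values of Gsk3a and Vangl2 were added after they were seen. Replicates of a genotype differed beyond sampling noise (chi-square over its degrees of freedom 17.8 to 43.2).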

Additional observations from a re-analysis of the deposited data

How the results depend on the processing

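Directions of the medians over the members held under all 15 alternatives of each comparison. Members past an adjusted p of 0.05 in Dot1l(fl/fl) against Dot1l(+/+) were 2 with no filter on low counts (Celsr2, Tcf7l2), 2 with DESeq2 (Celsr2, Gsk3b) and 0 to 1 with a library left out (1, Celsr2, without Dot1l(+/+) 2), and in the other comparisons 0 throughout. Members past an unadjusted p of 0.05 in that comparison were 5 with the length and GC offset and 5 to 12 with a library left out (5 without Dot1l(fl/fl) 1), while the share of all genes, 9.27% with all libraries, was 6.72% with the offset and 5.85% to 13.5% with a library left out. In Dot1l(fl/+) against Dot1l(+/+) they were 5 with no filter, 1 with the offset and 1 to 9 with a library left out (9 without Dot1l(+/+) 2, 1 without Dot1l(fl/+) 2, and 5 without Dot1l(fl/+) 3, Dot1l(fl/fl) 1 or Dot1l(fl/fl) 2), and the share of all genes went from 5.02% to 4.43% with the offset and, with those first and second libraries left out, to 8.43% and 4.34% respectively. Between Dot1l(fl/fl) and Dot1l(fl/+) they were 3 with no filter, 2 with DESeq2 and 1 to 4 with a library left out (4 without Dot1l(+/+) 2, Dot1l(fl/fl) 1 or Dot1l(fl/fl) 2), beside 4.02% of all genes with all libraries and 5.25%, 5.43% and 5.71% without these. In Dot1l(fl/+) against Dot1l(+/+) the share of all genes was 5% with no filter and 4.03% without Dot1l(fl/+) 3. Between Dot1l(fl/fl) and Dot1l(fl/+) it was 3.71% with no filter and 3.54% with DESeq2. The median of -0.107 was -0.056 with the offset and -0.147 to -0.055 with a library left out (-0.055 without Dot1l(+/+) 3). The median of -0.093 was -0.17 to -0.065 (-0.17 without Dot1l(+/+) 2), and that of -0.039 was -0.146 to -0.012 (-0.146 without Dot1l(fl/fl) 2). The value of Tcf7l2 in Dot1l(fl/+) reversed to 1.07 without Dot1l(+/+) 3 and ranged from -0.81 to 1.07 with a library left out. The cause of these shifts was not tested. Levels per kilobase moved by more than 1 SD for 22 of 53 members when the longest transcript replaced the union of exons.

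The study pooled embryos in sets matched by litter, but the sources used here do not tie replicate numbers to sets. Deviations from the genotype mean had r from -0.031 to 0.0453 for libraries with equal numbers and from -0.0514 to 0.0449 for the rest, so the numbers were not taken to pair the libraries. With the replicate block, the members past an unadjusted p of 0.05 were 6, 3 and 1 in the 3 comparisons (7.69%, 4.38% and 3.6% of all genes), 0 passed the adjusted threshold, and the medians were -0.07, -0.067 and -0.034. With the block and the length and GC offset together the counts were 4, 2 and 2 (6.75%, 4.25% and 4.66% of all genes) and the medians -0.058, -0.035 and -0.05. With 2 or 3 libraries a genotype and 3 counts at 0.2203 CPM in the shallowest, fold changes of Ror1, Lgr5, Rnf43, Tcf7 and Tcf7l1, each at 0 counts in some libraries, rest on few counts.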
